A study of Mus musculus with 3 samples.

Results

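Cholesterol synthesis enzymes were followed across 3 sections of healing mouse skin. The 9 genes were *Hmgcs1*, *Idi1*, *Fdps*, *Fdft1*, *Sqle*, *Lss*, *Cyp51*, *Msmo1* and *Dhcr7*, picked by symbol from the 32285 genes of the deposited matrices. All 9 were measured in every section. On GRCm38 (GENCODE M21) the protein-coding genes lie at chr13:119690379-119708260 (*Hmgcs1*), chr13:8885501-8892451 (*Idi1*), chr3:89093588-89101959 (*Fdps*), chr14:63145150-63179578 (*Fdft1*), chr15:59315077-59331192 (*Sqle*), chr10:76531588-76557138 (*Lss*), chr5:4081145-4104746 (*Cyp51*), chr8:64718139-64733792 (*Msmo1*) and chr7:143823145-143848410 (*Dhcr7*).

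The study captured mRNA from frozen sections of skin wounds of C57BL/6J mice on spatially barcoded Visium slides. Each slide carries spots that bind poly(A) tails, and each captured molecule is counted by its unique molecular identifier (UMI). The 3 groups were wounded skin on Day 3, Day 7 and Day 14 post injury, with 1 section a day. Per the study's methods the wounds were full-thickness punch wounds in the back skin of adult male mice, no transgene or treatment is named for these sections, and none is of unwounded skin. A spot is a small area that can hold several cells of different types.

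Cells build cholesterol from acetyl-CoA through the mevalonate pathway. Its first steps lead to mevalonate, which is turned into isoprenoid units, joined into farnesyl diphosphate and squalene, closed into lanosterol and trimmed to cholesterol. The transcription factor SREBP2 switches these genes on together when sterols run low in the cell. In skin, sebaceous glands make lipids for sebum, and keratinocytes make cholesterol for the lipid barrier of the cornified layer.

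In the order of the pathway, *Hmgcs1* encodes HMG-CoA synthase, *Idi1* isopentenyl diphosphate isomerase, *Fdps* farnesyl diphosphate synthase and *Fdft1* squalene synthase. *Sqle* encodes squalene epoxidase, and *Lss* lanosterol synthase, which closes the sterol rings. *Cyp51* and *Msmo1* encode the enzymes that remove methyl groups from lanosterol and its products, and *Dhcr7* encodes 7-dehydrocholesterol reductase, which makes cholesterol in the last step of one branch and uses the precursor of vitamin D as its substrate.

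RefSeq promoter windows are shown for 4 of the genes, since the pathway is known for shared sterol control: the entry enzyme, the pair of demethylases with high counts, and *Dhcr7*, which behaved differently from the other 8 in the results that follow. Each window runs from 250 bases before to 50 bases after an annotated start site, 5′ to 3′ on the gene's strand (build GRCm38.p6, the same as mm10). Capitals mark TCACNCCAC, the core of the sterol regulatory element, and CCAAT, the box bound by NF-Y, each on either strand (ATTGG is CCAAT read on the other strand). *Hmgcs1* is shown at chr13:119690101-119690400 (plus strand), *Cyp51* at chr5:4104648-4104947 (minus strand), *Msmo1* at chr8:64733529-64733828 (minus strand) and *Dhcr7* at chr7:143829964-143830263 (plus strand), the third of its annotated start sites.
*Hmgcs1*: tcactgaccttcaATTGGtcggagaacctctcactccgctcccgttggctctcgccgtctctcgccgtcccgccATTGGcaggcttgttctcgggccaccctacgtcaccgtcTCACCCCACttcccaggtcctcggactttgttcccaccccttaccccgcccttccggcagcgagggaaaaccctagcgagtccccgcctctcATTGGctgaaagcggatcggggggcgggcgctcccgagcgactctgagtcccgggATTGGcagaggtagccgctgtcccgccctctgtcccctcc
*Cyp51*: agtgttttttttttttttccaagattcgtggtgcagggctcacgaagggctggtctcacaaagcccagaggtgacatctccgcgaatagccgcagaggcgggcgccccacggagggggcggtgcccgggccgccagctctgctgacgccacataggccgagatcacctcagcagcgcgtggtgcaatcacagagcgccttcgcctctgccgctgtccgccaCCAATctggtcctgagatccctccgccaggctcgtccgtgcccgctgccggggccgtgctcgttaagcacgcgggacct
*Msmo1*: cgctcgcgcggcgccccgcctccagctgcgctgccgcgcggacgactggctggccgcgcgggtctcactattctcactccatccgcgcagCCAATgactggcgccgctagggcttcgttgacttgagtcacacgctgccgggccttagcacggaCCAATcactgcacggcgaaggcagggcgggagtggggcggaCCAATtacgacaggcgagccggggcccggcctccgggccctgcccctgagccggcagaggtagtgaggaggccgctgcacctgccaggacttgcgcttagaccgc
*Dhcr7*: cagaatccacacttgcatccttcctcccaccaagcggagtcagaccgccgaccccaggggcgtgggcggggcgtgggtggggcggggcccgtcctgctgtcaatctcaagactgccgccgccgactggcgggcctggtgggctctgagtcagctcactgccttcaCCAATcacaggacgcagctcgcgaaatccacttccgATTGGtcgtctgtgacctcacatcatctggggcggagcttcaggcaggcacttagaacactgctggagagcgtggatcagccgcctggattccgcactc

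Of the 9 genes, 6 had a window in the RefSeq table, and *Sqle*, *Fdft1* and *Fdps* did not. TCACNCCAC was found for 1 of the 6, *Hmgcs1*, against 408 of 32851 windows in the whole table (1.24%). CCAAT was found for 6 of 6, against 37.4% of windows, and GGGCGG, the GC box letters, also for 6 of 6, against 35.7%. The counts are of genes with a match in any of their windows, whereas the shares are of single windows, so the measures are unlike. *Dhcr7* had 3 windows, of which 1 held CCAAT and 2 held GGGCGG. The *Dhcr7* window at the third start site held the CCAAT box on both strands, whereas its windows at the other two start sites held none. Among the 12 other genes of the pathway, 10 had a window, of which 0 held TCACNCCAC, 9 held CCAAT and 9 held GGGCGG. A match is a description of the letters only.

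The sections differed in size and depth. Between 549 and 697 spots lay under tissue on each slide, and held 1772259, 4442962 and 4611723 UMIs in the order of the days, with a median of 1513, 6687 and 4827 a spot. The 9 genes together gave 2330, 1926 and 6124 of these UMIs. The 4992 barcodes are the same on the 3 slides by the design of the slide. The skin label held in each section, since the epidermis list (*Krt10*, *Krt5* and other keratinocyte genes) summed to 9428, 4891 and 12091 CPM (UMIs of a gene per 1000000 UMIs) on Days 3, 7 and 14, and sebaceous, muscle and fat lists were also detected. The hair follicle list, of inner root sheath and hair matrix genes, summed to 6.77, 9.68 and 5122 CPM, so that it was near 0 on Days 3 and 7 and not on Day 14.

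The first comparison asked how the enzymes stood on each day. On Day 3 they summed to 1315 CPM, with a 95% interval from 1262 to 1369. The sum was 433 CPM (414 to 453) in the Day 7 section and 1328 CPM (1295 to 1362) in the Day 14 section. Day 7 was thus the low section, and Days 3 and 14 had overlapping intervals. These intervals are exact Poisson intervals and cover counting error only. With 1 section a day there is no replicate check of any difference between days, and a difference in the number of cells of a type cannot be told apart from a difference in RNA per cell.

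**Figure D1:**
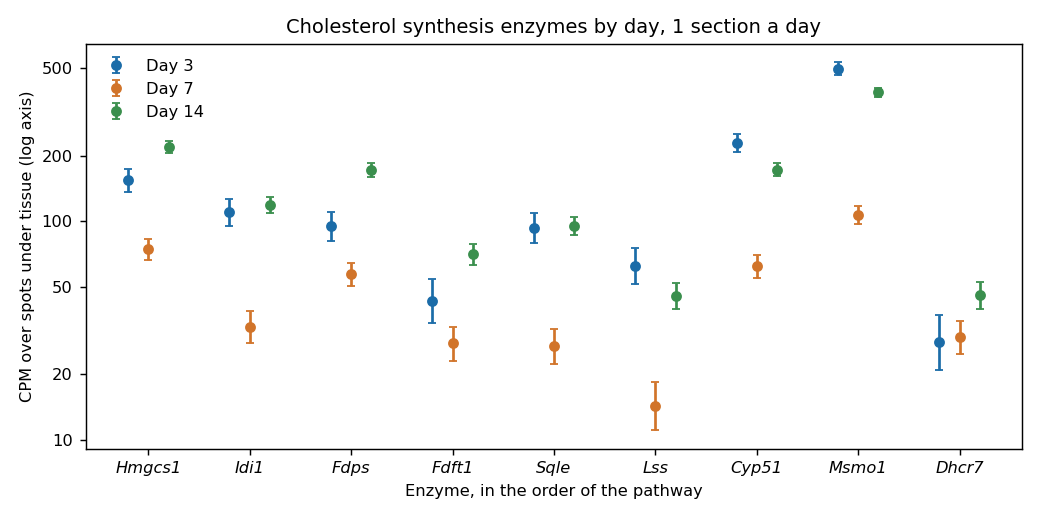
Level of each of the 9 enzymes (CPM over spots under tissue, log axis) on Days 3, 7 and 14, with 1 section a day and bars for the exact Poisson 95% interval. For 8 of the 9 genes the level is lowest on Day 7, and *Dhcr7* has overlapping intervals on Days 3 and 7.

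At the start of the pathway, *Hmgcs1* measured 155, 74.7 and 219 CPM on Days 3, 7 and 14. *Idi1* measured 110.0, 33.1 and 119 CPM, and *Fdps*, at the branch to dolichol, ubiquinone and protein prenylation, 94.8, 57.4 and 172 CPM. All 3 were lowest on Day 7 and highest on Day 14, with *Idi1* close to its Day 3 level on Day 14.

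In the steps through squalene, *Fdft1*, the first enzyme committed to sterols, measured 43.4, 27.7 and 70.7 CPM on Days 3, 7 and 14. *Sqle*, a rate-limiting enzyme of the later pathway, measured 93.7, 27.0 and 95 CPM. *Lss* measured 62.6, 14.4 and 45.5 CPM. *Sqle* was thus nearly level between Days 3 and 14, and *Lss* was highest on Day 3.

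Among the sterol-modifying enzymes, *Cyp51* measured 229, 62.3 and 172 CPM and *Msmo1* 499, 107 and 388 CPM on Days 3, 7 and 14. Both were highest on Day 3. *Dhcr7* measured 28.2, 29.7 and 46.0 CPM and was the only one of the 9 not lowest on Day 7. UMIs count molecules caught at the poly(A) tail, so no scaling by gene length was applied. *Msmo1* held the largest share of the 9 genes' UMIs, with 37.9%, 24.7% and 29.2%, so sums over the 9 genes lean on it. *Dhcr7* gave 50, 132 and 212 UMIs and *Lss* 111, 64 and 210, and *Fdft1* gave 77 on Day 3, so these values carry wide intervals.

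Day 7 over Day 3, the log2 ratio of the summed level was −1.60 (95% interval −1.69 to −1.51, an exact conditional binomial interval for counting error). The interval lay below 0 for 8 of 9 genes and held 0 for 1, *Dhcr7* (0.07, −0.41 to 0.57). The differences were largest for *Msmo1* (−2.22) and *Lss* (−2.12), followed by *Cyp51* (−1.87), *Sqle* (−1.79) and *Idi1* (−1.73). They were smaller for *Hmgcs1* (−1.05), *Fdps* (−0.72) and *Fdft1* (−0.65). By a 1.5-fold rule, 8 of 9 enzymes were lower and 0 higher, whereas of all 10541 genes with at least 50 UMIs over both sections 15.5% were lower and 19.5% higher. The median log2 ratio was −1.73 over the 9 enzymes and 0.04 over all genes tested.

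From Day 7 to Day 14 the summed level was higher by 1.62 on the log2 scale (1.54 to 1.69), and the interval lay above 0 for 9 of 9 genes. *Msmo1* (1.86), *Idi1* (1.85) and *Sqle* (1.81) differed most, and *Dhcr7* least (0.63, 0.31 to 0.95). All 9 passed 1.5-fold upward, against 23.4% of 11746 genes upward and 15.3% downward. Median log2 ratios were 1.58 for the enzymes and 0.13 for all genes.

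Between Day 3 and Day 14 the sum differed by 0.01 (−0.05 to 0.08), but the single genes did not move alike. The interval lay above 0 for 4 genes, *Fdps* (0.86, 0.62 to 1.11), *Dhcr7* (0.70, 0.25 to 1.18), *Fdft1* (0.70, 0.34 to 1.08) and *Hmgcs1* (0.50, 0.31 to 0.70). It lay below 0 for 3, *Lss* (−0.46, −0.80 to −0.11), *Cyp51* (−0.41, −0.58 to −0.23) and *Msmo1* (−0.36, −0.48 to −0.24), which act from ring closure through demethylation. *Idi1* (0.12) and *Sqle* (0.02) had intervals that held 0. By the 1.5-fold rule 3 of 9 were higher and 0 lower, near the background of 28.4% higher and 14.3% lower among 10955 genes. Median log2 ratios were 0.12 for the enzymes and 0.18 for all genes.

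These ratios pool UMIs over spots, so deep spots weigh most. When each spot was given equal weight (mean of spot CPM), the sum differed by −0.64 from Day 3 to Day 7 and by 0.65 from Day 3 to Day 14, *Hmgcs1* (0.011) and *Fdps* (0.39) no longer were lower on Day 7, and *Lss* (0.14), *Cyp51* (0.13) and *Msmo1* (0.35) no longer were lower on Day 14 than on Day 3.

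Cell type markers moved with the days as well. The sebaceous list summed to 3200, 1567 and 2124 CPM on Days 3, 7 and 14, and *Far2*, a fatty acyl-CoA reductase of sebaceous glands, measured 207, 34.7 and 97.6 CPM. The granulation list, of *Postn*, *Acta2* and other genes of wound fibroblasts, summed to 1358, 8520 and 1753 CPM, and the fat list to 7586, 7499 and 2027 CPM. The sebaceous and epidermis lists were therefore lowest, and the granulation list highest, in the section where the enzymes were lowest. The part of tissue makeup in the day differences was not tested. For each *Far2* UMI, Days 3, 7 and 14 had 6.37 (5.70 to 7.13), 12.5 (10.6 to 14.8) and 13.6 (12.4 to 15.0) enzyme UMIs, so enzyme and *Far2* UMIs did not keep 1 ratio.

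Some of the other enzymes of the pathway had the same low Day 7. Of 12 such genes, 6 were lower by 1.5-fold from Day 3 to Day 7 and 0 higher (median −0.57), and 9 were higher from Day 7 to Day 14 and 0 lower (median 0.91). Of all genes, 15.5% were lower and 19.5% higher in the first of these comparisons, and 23.4% higher and 15.3% lower in the second. *Hsd17b7*, a ketoreductase that works with *Msmo1* in demethylation, measured 94.8, 15.8 and 71.1 CPM and was lowest on Day 7. *Sc5d*, which makes the substrate of DHCR7, measured 19.2, 19.8 and 36.0 CPM, and like *Dhcr7* it was not lowest on Day 7.

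The regulators of the pathway had median log2 ratios of −0.12 from Day 3 to Day 7 and 0.50 from Day 7 to Day 14. *Srebf2*, which encodes SREBP2, measured 66.6, 62.8 and 99.96 CPM. From Day 3 to Day 7, 1 of 8 regulators and targets tested was higher by 1.5-fold and 1 lower, no more than the 19.5% and 15.5% of all genes, and from Day 7 to Day 14, 4 of 9 were higher and 0 lower, against 23.4% and 15.3%. The genes of cholesterol efflux and esterification did not share the high Day 14, with 3 of 7 tested lower and 0 higher from Day 7 to Day 14, against 15.3% lower and 23.4% higher among all genes. *Soat1*, which stores cholesterol as esters, measured 239, 77 and 92.8 CPM.

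The genes of fatty acid synthesis did not share 1 course. *Fasn*, the fatty acid synthase, measured 574, 926 and 319 CPM on Days 3, 7 and 14 and was highest on Day 7. *Elovl6*, a fatty acid elongase, measured 747, 295 and 696 CPM and was lowest on Day 7. Of 8 genes of the list, 3 were higher and 1 lower by 1.5-fold from Day 3 to Day 7, against 19.5% and 15.5% of all genes, and 1 was higher and 3 lower from Day 7 to Day 14, against 23.4% and 15.3%. The single genes in the minority direction were thus no more than the share of all genes.

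The second comparison asked which spots were richest in the enzymes. Within each section, spots under tissue with at least 500 UMIs were ranked by the CPM of *Far2* (sebaceous), *Krt10* (a keratin of the differentiating epidermis) or *Postn* (periostin, of granulation tissue), and the top 10% were set against the other spots of that section. The enzymes had no part in choosing the spots, but spots of 1 section are not replicates, so ratios carry counting intervals and no test.

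**Figure D2:**
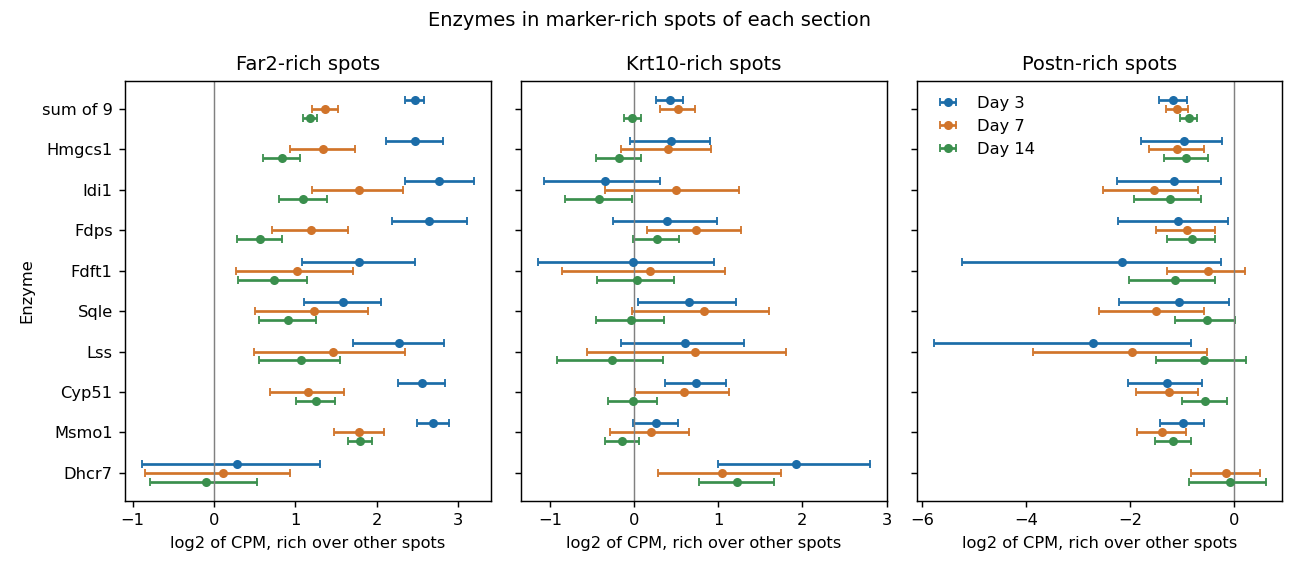
Log2 ratio of each enzyme's CPM in marker-rich spots over the other spots of the same section, for *Far2*, *Krt10* and *Postn* on Days 3, 7 and 14, with exact conditional binomial 95% intervals and a line at 0. In *Far2*-rich spots the intervals of 8 of 9 enzymes lie above 0 on each day. The interval of *Dhcr7* holds 0 there and lies above 0 in *Krt10*-rich spots.

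*Far2*-rich spots had the highest enzyme levels of the 3 marker classes. On Day 3 the sum was 4093 CPM in 52 *Far2*-rich spots and 739 CPM in the others, a log2 ratio of 2.47 (2.35 to 2.59). On Day 7 it was 977 against 378 CPM in 54 and the remaining spots (1.37, 1.20 to 1.53), and on Day 14 2629 against 1159 CPM with 69 rich spots (1.18, 1.09 to 1.27). The median spot had 2110 CPM against 157 on Day 3, 693 against 320 on Day 7 and 1396 against 933 on Day 14. Both kinds of spot reached down to 0, so single spots overlapped on every day.

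The *Far2*-rich spots held a large part of the pathway's RNA on Day 3. Of the UMIs in ranked spots they took 17.4% of those of all genes and 53.9% of those of the enzymes on Day 3, 9.20% and 20.7% on Day 7, and 11.5% and 22.8% on Day 14. Of the 10% of spots richest in the enzymes, 28 of 52 were *Far2*-rich on Day 3, 17 of 54 on Day 7 and 22 of 69 on Day 14, whereas 11, 11 and 9 were *Krt10*-rich and 3, 2 and 2 *Postn*-rich.

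By gene, the interval lay above 0 in *Far2*-rich spots for 8 of 9 enzymes on each day, and the exception on each day was *Dhcr7* (0.28, −0.89 to 1.31, then 0.11, −0.84 to 0.94, then −0.10, −0.79 to 0.53). *Msmo1* measured 1665 against 258 CPM on Day 3 (2.69), 301 against 87.3 on Day 7 (1.79) and 1051 against 302 on Day 14 (1.80). *Idi1* differed by 2.77, 1.78 and 1.10 on the log2 scale, and *Cyp51* by 2.55, 1.16 and 1.25. The ratios of all 8 were highest on Day 3. *Fdps* went from 2.64 on Day 3 to 1.19 and then 0.57, and *Sqle* had the smallest Day 3 ratio of the 8 (1.59, then 1.23 and 0.91).

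Past 1.5-fold were 8 of 8 enzymes tested on Day 3, where *Dhcr7* with 49 UMIs in ranked spots was under the minimum of 50, against 16.4% of all genes. On Day 7 it was 8 of 9 against 11.0%, and on Day 14 7 of 9 against 7.41%, *Fdps* being short of the fold. Medians over the enzymes tested were 2.51, 1.23 and 0.91, and over all genes tested −0.0062, 0.017 and −0.014.

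The other lists give the setting of this class. Of the 11 sebaceous markers other than *Far2*, 11, 7 and 10 had intervals above 0 in *Far2*-rich spots on Days 3, 7 and 14. The list, *Far2* included, summed to 8763 against 2051 CPM on Day 3, 2328 against 1489 on Day 7 and 4615 against 1800 on Day 14. Of the 12 sebaceous markers, *Cidea*, *Dgat2*, *Scd3* and *Fabp5* are also expressed by fat or other epithelial cells. The epidermis list was higher there too, by 0.73, 0.66 and 0.18 on the log2 scale, and on Day 3 *Far2*-rich spots were deeper, with a median of 5202.5 against 1881.5 UMIs. On Day 7, where depth was nearly equal (6780.5 against 6795), a spot with a single *Far2* UMI was the median *Far2*-rich spot. The part of depth and of neighbouring epidermis in these ratios was not tested.

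Other lipid genes differed in their levels in *Far2*-rich spots. Of the 8 genes of fatty acid synthesis, 6, 2 and 6 passed 1.5-fold upward on Days 3, 7 and 14, against 16.4%, 11.0% and 7.41% of all genes, with medians of 1.49, 0.52 and 0.98 and lowest values of −0.54, −0.20 and −0.31. The efflux and esterification genes had 2 of 5, 1 of 7 and 2 of 7 past it, with medians of 0.34, −0.38 and 0.39 and lowest values of −0.12, −0.68 and −1.15. Among the higher ones, *Elovl6* differed by 2.93, 1.74 and 1.55 on the log2 scale on Days 3, 7 and 14, and *Soat1* by 2.14, 0.86 and 1.91. *Srebf2* differed by 0.13, 0.14 and −0.16, each with an interval that held 0, so its transcript was not detectably higher in *Far2*-rich spots. Of the regulators and targets tested there, 5 of 6, 2 of 8 and 1 of 8 passed 1.5-fold upward, and 0, 0 and 2 downward. Their medians were 1.37, 0.21 and 0.18. Spots were also split by the enzymes themselves, as described below. *Srebf2* was then higher in the richest spots on Days 3 (1.07, 0.52 to 1.63) and 14 (0.37, 0.09 to 0.64). On Day 7 its interval held 0 (−0.08, −0.52 to 0.33). In *Far2*-rich spots, 8 of 8 other enzymes of the pathway tested passed 1.5-fold upward on Day 3, 7 of 12 on Day 7 and 6 of 12 on Day 14. Their lowest values were 1.27, −0.75 and −0.50.

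**Figure D3:**
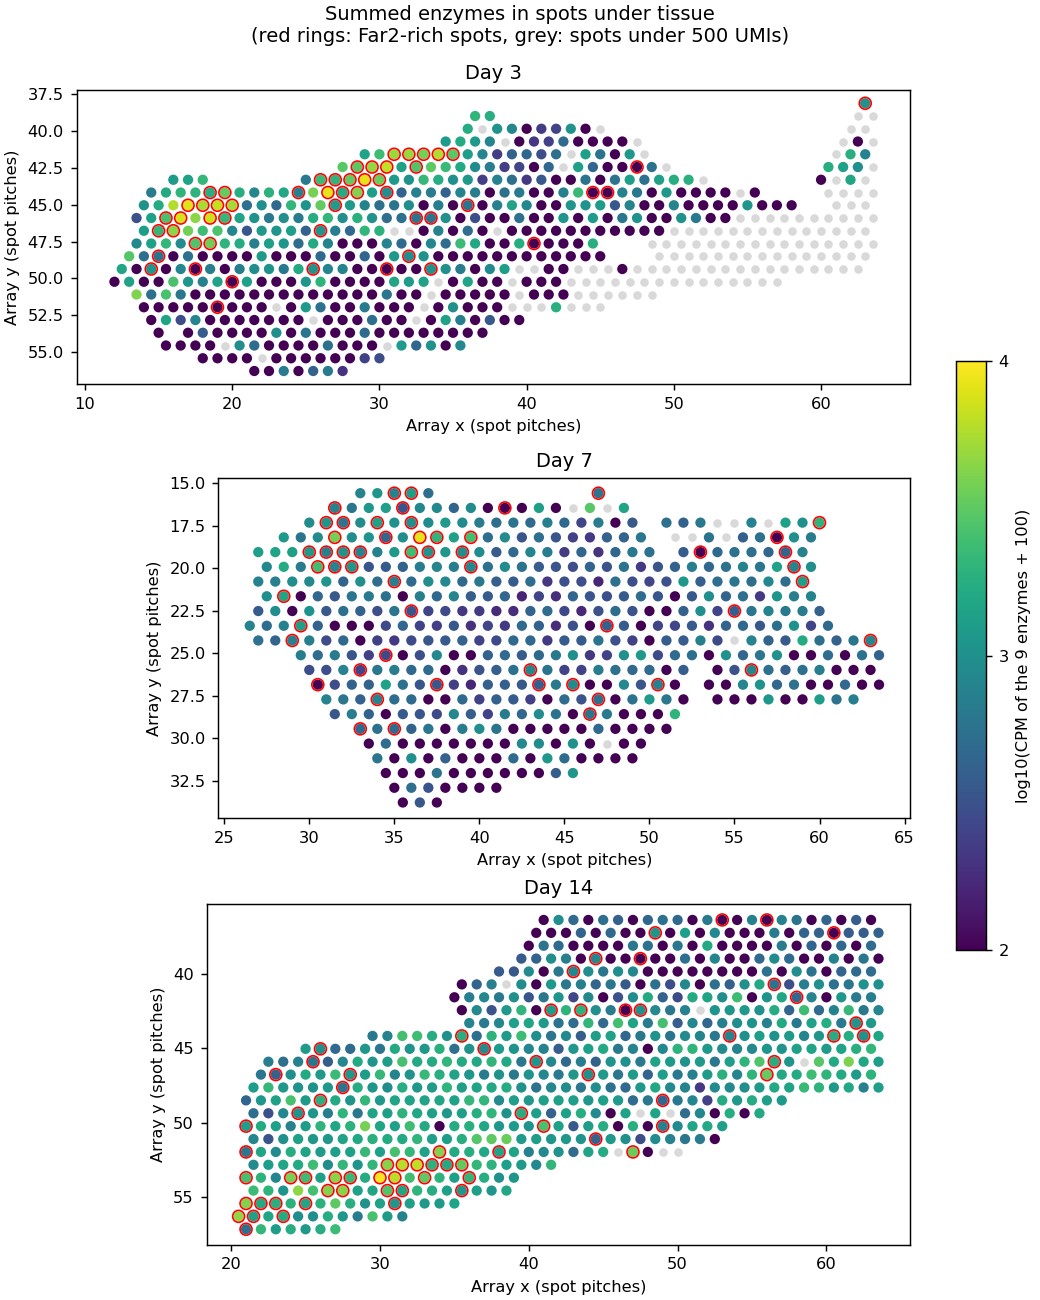
Maps of the 3 sections, each dot a spot under tissue at its place in the slide's grid, coloured by the summed CPM of the 9 enzymes and ringed where the spot was *Far2*-rich. On Day 3, 28 of the 52 spots richest in the enzymes are ringed, and on Day 14 intermediate levels spread over most of the section.

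Enzyme levels fell off with distance from *Far2*-rich spots on Days 3 and 7, distance being counted in spot-to-spot steps. On Day 3 the sum was 4093 CPM in the rich spots, 1297 CPM at 1 step, 731 at up to 2, 410 at up to 4 and 196 at over 4 steps. On Day 7 the series was 977, 503, 390, 280 and 169 CPM, the last from 23 spots. On Day 14 it was 2629, 1249, 1086 and 1129 CPM, so that levels past the first step were flat, and only 2 spots were more than 4 steps away. *Dhcr7* had no such course near the rich spots. Its Day 3 series was 32.7, 32.2, 47.3, 13.2 and 8.19 CPM, its Day 7 series 31.8, 31.7, 34.1, 23.0 and 42.2 CPM and its Day 14 series 43.3, 54.4, 37.1 and 47.8 CPM, the last Day 3 and Day 7 values resting on 2 and 5 UMIs. The epidermis list was also lower far from *Far2*-rich spots. Over the same bins it was 14057, 11402.5, 13027, 4181 and 2886 CPM on Day 3. On Day 7 it was 7333, 6532, 4914, 3031 and 1763 CPM. The part of epidermis in the course of the enzymes was not tested.

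**Figure D4:**
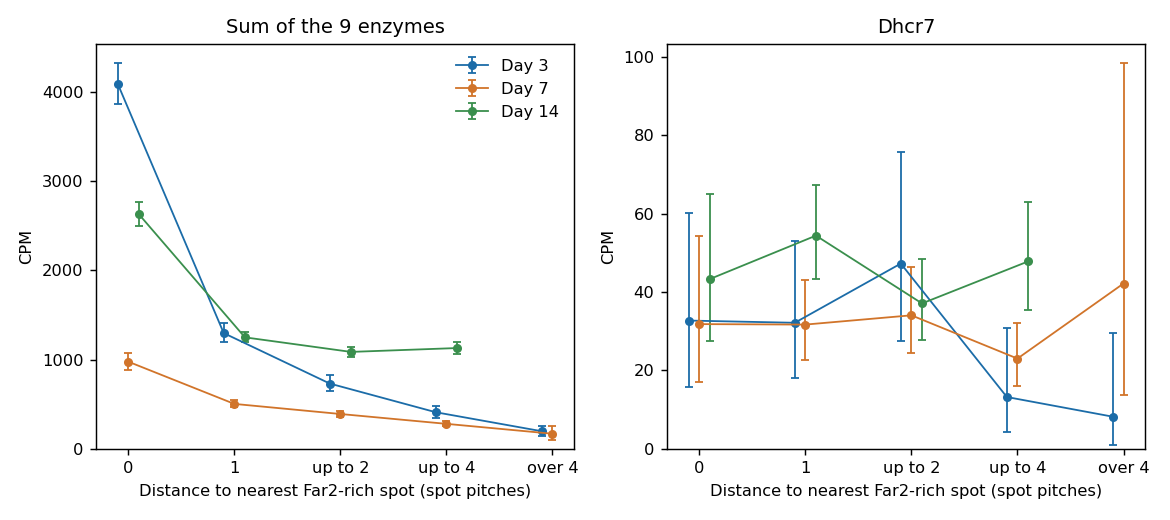
Summed CPM of the 9 enzymes (left) and CPM of *Dhcr7* (right) by distance from the nearest *Far2*-rich spot in spot-to-spot steps, for each day. Axes are linear, with exact Poisson 95% intervals and bins of at least 20 spots. The sum runs from 4093 down to 196 CPM on Day 3 and from 977 down to 169 on Day 7. On Day 14 it stays between 1086 and 1249 CPM outside the rich spots.

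In *Krt10*-rich spots the sum was 1697 against 1266 CPM on Day 3 (0.42, 0.26 to 0.58), 600 against 419 on Day 7 (0.52, 0.30 to 0.72) and 1313 against 1331 on Day 14 (−0.02, −0.12 to 0.08). With spots shared by both classes left out, the sum was higher in *Far2*-rich than in *Krt10*-rich spots by 1.62 (1.43 to 1.82), 0.76 (0.51 to 1.02) and 1.24 (1.10 to 1.38) on Days 3, 7 and 14.

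*Dhcr7* stood out in *Krt10*-rich spots. It measured 77.1 against 20.4 CPM on Day 3 (1.92, 1.0 to 2.80), 56.6 against 27.4 on Day 7 (1.05, 0.28 to 1.74) and 90.03 against 38.5 on Day 14 (1.22, 0.77 to 1.66), from 18, 20 and 60 UMIs in the rich spots. Set directly against *Krt10*-rich spots, *Far2*-rich spots had log2 ratios of *Dhcr7* of −1.40 (−2.75 to −0.16), −0.94 (−2.17 to 0.22) and −1.45 (−2.42 to −0.58) over the 3 days. The Day 7 difference was thus not detectable at this depth. *Sc5d*, the enzyme one step before, differed by 1.64, 1.13 and 1.0 in *Krt10*-rich spots, each with its interval above 0. It had only 34 UMIs under tissue on Day 3, below the minimum of 50. The other enzymes of the pathway did not share this as a set. Past 1.5-fold upward were 1 of 8 tested, 2 of 12 and 1 of 12, against 16.6%, 12.3% and 10.3% of all genes. Their medians were 0.03, 0.27 and −0.07.

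Of the other 8 enzymes, *Sqle* (0.65) and *Cyp51* (0.74) on Day 3 and *Fdps* (0.73) and *Cyp51* (0.60) on Day 7 also had intervals above 0 in *Krt10*-rich spots, and *Idi1* on Day 14 lay below 0 (−0.41, −0.82 to −0.03). Past 1.5-fold upward were 3 of 8 on Day 3 against 16.6% of all genes, 5 of 9 on Day 7 against 12.3%, and 1 of 9 on Day 14 against 10.3%, the last being *Dhcr7*. The epidermis list checked the class, with 9, 8 and 9 of 9 markers other than *Krt10* above 0. When spots were ranked by the whole list without *Krt10*, which adds keratins of the basal layer, the sum differed by 0.84, 1.34 and 0.38 on Days 3, 7 and 14, and *Idi1* on Day 14 by 0.070. Equal weight for each spot gave 0.88 on Day 3 and 0.35 on Day 14. *Krt10*-rich spots had a median depth of 1991.5 against 1987 UMIs on Day 3, 4831.5 against 7128 on Day 7 and 9030 against 4680.5 on Day 14. The part of depth was not tested.

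Pooled over spots, *Postn*-rich spots were poor in the enzymes. The sum was 625 against 1408 CPM on Day 3 (−1.17, −1.45 to −0.90), 227 against 487 on Day 7 (−1.10, −1.31 to −0.89) and 757 against 1384 on Day 14 (−0.87, −1.04 to −0.71). The median spot had 481 CPM against 322 on Day 3, 240 against 364 on Day 7 and 740 against 996 on Day 14. On Day 3 the median spot thus went the other way, and 69.2% against 53.8% of spots had an enzyme UMI. The interval of the pooled ratio lay below 0 for 9, 7 and 6 of the 9 genes. *Msmo1* differed by −0.98, −1.38 and −1.17, and *Idi1* by −1.16, −1.54 and −1.24. For *Dhcr7*, 0 of 49 UMIs on Day 3 lay in *Postn*-rich spots, which held 10.8% of the UMIs in ranked spots (upper end of the log2 interval −0.63), and on Days 7 and 14 it differed by −0.14 and −0.08, with intervals that held 0.

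Past 1.5-fold downward were 8 of 8 tested on Day 3 against 18.6% of all genes, 7 of 9 on Day 7 against 17.1%, and 5 of 9 on Day 14 against 18.3%. Of the 9 granulation markers other than *Postn*, 6, 9 and 7 had intervals above 0 in *Postn*-rich spots on Days 3, 7 and 14. On Day 3 the median *Postn*-rich spot held 2 *Postn* UMIs, and 8 of the 52 spots were also *Far2*-rich. In *Postn*-rich spots the log2 ratio of the epidermis list was −0.63, −1.33 and −1.01 on Days 3, 7 and 14. That of the macrophage list was 0.45, 0.45 and 1.27, and the part of both lists in the result was not tested. Median depth was 1872 against 1990 UMIs on Day 3, 16478 against 6067 on Day 7 and 5153 against 4835.5 on Day 14. The part of depth was not tested. With equal weight for each spot the Day 3 difference of the sum was −0.11, with *Hmgcs1* (0.10) and *Msmo1* (0.31) above 0, and it was −0.55 on Day 7.

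The day pattern was then followed inside and outside the *Far2*-rich spots. From Day 3 to Day 7 the log2 ratio of the sum was −2.07 (−2.23 to −1.90) in *Far2*-rich spots and −0.97 (−1.08 to −0.85) in the others, and from Day 7 to Day 14 it was 1.43 and 1.61. Day 7 was therefore the low day in both. Between Days 3 and 14 the sum differed by −0.64 (−0.75 to −0.53) in *Far2*-rich spots and 0.65 (0.55 to 0.75) in the others. The near-equal sums of Days 3 and 14 pooled these opposite differences, whose difference from each other was not tested. In *Far2*-rich spots 5 of 9 genes lay below 0 and none above, and in the others 7 of 9 lay above 0 and none below. No share of all genes was computed within these classes, so these counts have no background. Over whole sections, by the unlike measure of 1.5-fold, 28.4% of all genes were higher and 14.3% lower. The class is the top 10% of each section and was not matched for its marker across days. *Far2* itself measured 890.0, 235 and 441 CPM in the rich spots of Days 3, 7 and 14 and was thus also lower on Day 14 than on Day 3, and its part in the result was not tested. In *Krt10*-rich spots the sum differed by −0.37 (−0.54 to −0.19) from Day 3 to Day 14.

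The third comparison asked whether the enzymes of the pathway were high in the same spots. For each gene, spots were ranked by the other 8, and its level in the top 25% of spots was set against the rest. On Day 3 all 9 genes had intervals above 0, with log2 ratios from 1.37 for *Fdft1* to 3.23 for *Lss* and a median of 2.60, against 0.02 over other genes split by the 9. On Day 7 again 9 of 9 lay above 0 (median 1.29 against 0.04), and on Day 14 8 of 9 (median 0.85 against 0.09), with *Dhcr7* the exception (0.36, −0.06 to 0.77).

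Past 1.5-fold were 9, 9 and 8 of 9 enzymes, against 18.0%, 8.64% and 6.58% of other genes on Days 3, 7 and 14. Deep spots fell more often in the top 25%, with a median of 4415 against 1783.5 UMIs on Day 3, 7137 against 6755.5 on Day 7 and 7110.5 against 4414 on Day 14. When each spot was thinned to 1000 UMIs, which left 372, 236 and 745 enzyme UMIs, 5, 1 and 0 genes had intervals above 0, while 9, 9 and 8 of 9 ratios were still above 0 with medians of 1.64, 0.85 and 0.56.

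Without the *Far2*-rich spots the agreement was smaller and held for most genes. The interval lay above 0 for 8, 9 and 9 of 9 genes on Days 3, 7 and 14, with medians of 1.71, 1.01 and 0.56. No share or median over other genes was computed for these spots, so the counts have no background. The part of depth and of tissue type in this remaining agreement was not tested.

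**Figure D5:**
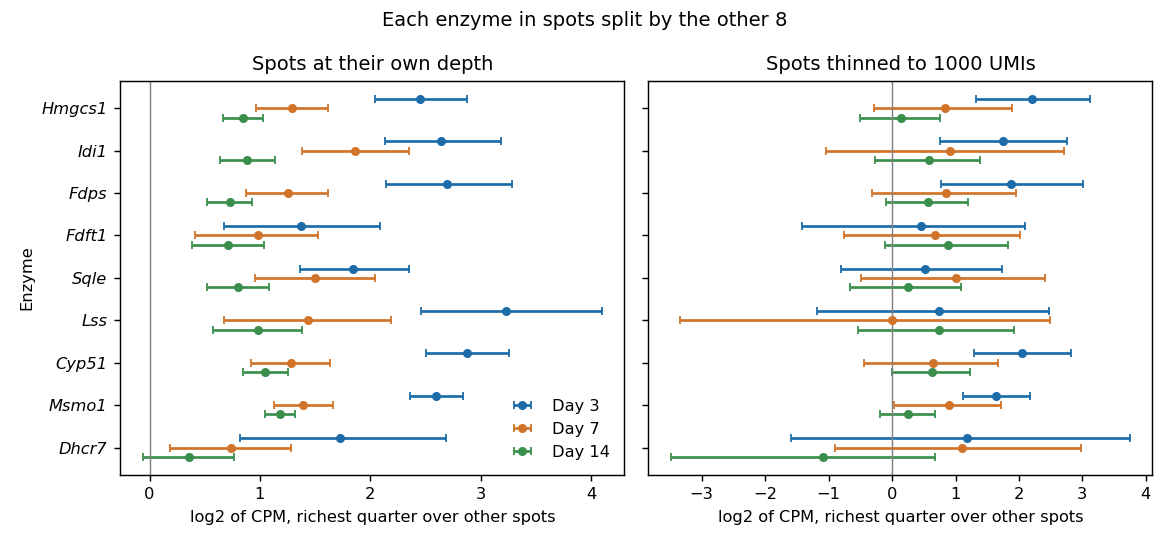
Log2 ratio of each enzyme's CPM in the 25% of spots richest in the other 8 over the remaining spots, by day. Bars are exact conditional binomial 95% intervals, and a line marks 0. The left panel has spots at their own depth, and the right panel has spots thinned to 1000 UMIs. On the left all points lie above 0, and *Dhcr7* on Day 14 (0.36) has an interval that holds 0. On the right *Dhcr7* on Day 14 (−1.08) lies below 0.

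Spot by spot the correlations were weak, as counts of a few UMIs a spot allow. Over the 36 pairs of enzymes, Pearson's r of log-scaled spot values had a median of 0.30 on Day 3 (520 spots), 0.12 on Day 7 (539) and 0.17 on Day 14 (689), with the highest pairs at 0.49, 0.24 and 0.34. The 8 pairs with *Dhcr7* had medians of 0.11, 0.06 and 0.11, below the 28 pairs without it (0.34, 0.14 and 0.18). Spots of a section share its library and tissue, so these values are descriptive only.

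The share of spots with a UMI of each enzyme was compared after thinning to 1000 UMIs, which left out 238, 24 and 18 shallower spots. Across Days 3, 7 and 14, *Msmo1* was found in 19.5% (exact binomial interval 15.8 to 23.6), 9.33% (6.98 to 12.2) and 25.6% (22.4 to 29.1) of spots, whereas the unthinned shares were 28.2%, 46.4% and 63.1%, so that Day 7 was lowest only after thinning. *Hmgcs1* was found in 9.15%, 5.90% and 15.3%, and *Dhcr7* in 1.64%, 2.29% and 3.09%, near the level of a few UMIs in all. For *Msmo1* the share was higher on Day 14 than on Day 3 while its CPM was lower, so no order of these days is read from it. Every cell type can make cholesterol, so no spot type gives a background share.

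Among 2977 genes with at least 100 UMIs in each section, the 10 outside the enzyme, regulator, efflux and fatty acid lists whose spot pattern was most like the summed enzymes were ranked by the lowest of the 3 correlations. They were *Krt5* (0.44), *Lgals7* (0.44), *Krt15* (0.43), *Elovl4* (0.42), *Perp* (0.39), *Trim29* (0.38), *Krt14* (0.37), *Cers4* (0.36), *Sbsn* (0.35) and *Dmkn* (0.35), against a median of 0.07 over all genes ranked and a 99th percentile of 0.30. *Krt5*, *Lgals7*, *Krt14*, *Sbsn* and *Dmkn* belong to the epidermis list. *Krt5*, *Krt14* and *Krt15* are keratins of basal and follicular epithelium, and *Elovl4* and *Cers4* make very long fatty acids and ceramides. Of listed genes, *Elovl6* (0.40), *Scd1* (0.34) and *Fasn* (0.31) were among the highest by the lowest of the 3 correlations. *Srebf2* had 0.17, 0.03 and 0.31 on Days 3, 7 and 14.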

How the data were processed

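Visium libraries of 3 frozen skin wound sections (Days 3, 7 and 14, 1 section a day) were analysed. The authors used Space Ranger 1.3.0 and mm10 to make the deposited counts, UMIs of each gene in each spot, per the submitters' processing notes, and deposited raw matrices with spot positions and a mark for spots under tissue. All spots under tissue entered pooled levels, and spots with at least 500 UMIs entered comparisons within a section. Depth was 1772259 to 4611723 UMIs a section.

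CPM was the UMIs of a gene over all UMIs of the pooled spots. Ratios carry exact 95% intervals from counts, which assume independent UMIs and do not include section-to-section variation. No p-value was computed, since spots are not replicates. The 1.5-fold background used genes with at least 50 UMIs. Thinning used seed 1. The calculations were tested on simulated data with 200 changed genes.

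The 9 enzymes, the lists and the markers were chosen with earlier results of these data known. Genes named are the 9 enzymes, 4 gene lists (12 pathway genes, 9 regulators, 8 efflux and 8 fatty acid genes) and the 10 genes most like the summed enzymes. Alternatives tried were other spot minimums, marker cutoffs of 5% and 20%, equal weight for spots, TMM (edgeR 4.0.16) and DESeq2 1.42.0 size factors, thinning, every spot of the slide and leaving out *Msmo1*. Spots rich in whole marker lists were added after seeing the data. Gene IDs were placed with GENCODE M21 (32158 of 32285 matched), and 1 listed hair gene, *Krt85*, had no row. Python 3.11.15, numpy 2.4.6, scipy 1.17.1, pandas 2.3.3, matplotlib 3.10.9 and R 4.3.3 were used. Images and the scale factors were not used. Values of some listed genes are not reported here.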

Additional observations from a re-analysis of the deposited data

Results flagged for a closer look

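The spots not marked as tissue, which entered no comparison, held RNA of the 9 enzymes. Days 3, 7 and 14 had summed levels of 521 (488 to 557), 356 (341 to 371) and 631 (608 to 654) CPM there, below the 1315, 433 and 1328 CPM of marked spots. These 4328, 4443 and 4295 spots held 49.0%, 59.2% and 50.6% of all UMIs, and 674, 2118 and 1780 of them had at least 500 UMIs. Muscle and fat lists were higher there than in marked spots, by 1.08, 1.13 and 1.07 and by 0.81, 1.24 and 1.34 on the log2 scale, and the study's appendix describes the marked spots as a chosen region of interest. Whether the unmarked spots lay over tissue was not tested.

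Between Days 3 and 14 the summed enzymes moved in opposite directions in *Far2*-rich spots and in the other spots, and the difference was not tested. The sum differed by −0.64 in *Far2*-rich spots and by 0.65 in the others. *Far2* itself measured 890.0 CPM in the rich spots on Day 3 and 441 CPM on Day 14, and its part in the result was not tested. *Hmgcs1* differed by −0.43 and 1.21, and *Idi1* by −0.74 and 0.93. *Cyp51* differed by −1.04 and 0.26, and *Msmo1* by −0.66 and 0.23. In these 4 genes both intervals left out 0.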

How the results depend on the processing

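With 1 section a day, leaving out 1 sample in turn was not possible, and section, day and slide cannot be told apart. Of 871 alternative values, 648 stayed within the counting interval of the value (counts, within 1.5 times), 215 moved past it and 8 changed direction. What follows gives log2 ratios of the summed enzymes, and causes were not tested.

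For Day 7 over Day 3 (−1.60), equal weight for each spot gave −0.64, every spot of the slide −1.26 and leaving out *Msmo1* −1.32. For Day 14 over Day 7 (1.62), the values were 1.29, 1.33 and 1.53, with 1.52 by TMM and 1.5 by DESeq2 size factors. For Day 14 over Day 3 (0.01), equal weight gave 0.65, TMM −0.083, DESeq2 −0.12 and leaving out *Msmo1* 0.20. Equal weight turned *Hmgcs1* (0.011) and *Fdps* (0.39) in Day 7 over Day 3 and *Lss* (0.14), *Cyp51* (0.13) and *Msmo1* (0.35) in Day 14 over Day 3.

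For *Far2*-rich spots, the top 5% gave 2.60, 1.67 and 1.61 on Days 3, 7 and 14, the top 20% 0.81 and 0.87 on Days 7 and 14, and ranking by the rest of the sebaceous list 2.68, 1.13 and 1.38. Leaving out spots rich in more than 1 marker gave 2.66 on Day 3 and 1.41 on Day 14, leaving out *Msmo1* 2.34 and 0.88, and equal weight 0.99 on Day 14. For *Krt10*-rich spots, the top 20% gave 0.59 on Day 3 and the top 5% 0.86 on Day 7, spots rich in 1 marker only 0.11 on Day 3, the rest of the list 0.84, 1.34 and 0.38, with *Idi1* turned to 0.070 on Day 14, and equal weight 0.88 on Day 3 and 0.35 on Day 14. For *Postn*-rich spots, the top 5% gave −1.50 and −1.38 on Days 3 and 7, the top 20% −0.57 on Day 14, spots rich in 1 marker only −1.46 on Day 3, the rest of the list −1.92 and −0.60 on Days 3 and 14, and equal weight −0.11, −0.55 and −0.43, with *Hmgcs1* (0.10) and *Msmo1* (0.31) turned on Day 3. Within-pathway agreement after thinning kept 5, 1 and 0 genes with intervals above 0. Of the 10 genes most like the enzymes, 9 stayed by Spearman and 10 with a minimum of 200 UMIs.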

Other observations

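Spots rich in whole marker lists, a choice made after seeing the data, set the enzymes against more tissues. Muscle-rich spots were the poorest, with log2 ratios of the summed enzymes of −3.40, −1.37 and −2.38 on Days 3, 7 and 14. Macrophage-rich spots (−1.73, −1.18 and −0.93) and endothelium-rich spots (−1.58, −0.71 and −0.56) were also poor on each day, as were spots rich in the granulation list (−1.91, −1.01 and −0.70). Neutrophil-rich spots differed by −1.50, −0.11 and −0.26. Fat-rich spots were poor on Days 3 and 14 (−1.08 and −1.10) and near the rest on Day 7 (0.13). Schwann-rich spots, whose cells use cholesterol for myelin, differed by 0.18, 0.16 and −0.41.

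Epithelial lists were on the high side. Sebaceous-rich spots differed by 2.68, 1.12 and 1.38 and epidermis-rich spots by 0.85, 1.29 and 0.22, so that on Day 7 the ratio was no smaller for the epidermis list than for the sebaceous list. Hair follicle-rich spots differed by 0.12, 0.66 and 0.31, the list being near 0 in the first and second sections (12 and 39 spots with a UMI). *Dhcr7* differed by 2.29, 1.07 and 1.24 in epidermis-rich spots and by 0.89, 0.51 and 0.00 in sebaceous-rich spots.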
